A study of Homo sapiens with 15 samples.

Results

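The 28 genes described here encode the enzymes that build cholesterol and fatty acids together with the SREBP (sterol regulatory element binding protein) factors that switch these enzymes on. They were taken by name from the gene table of the series and fell into 3 groups fixed by function, namely 18 sterol enzymes, 4 SREBP factors and sterol sensing or transport genes, and 6 genes of fatty acid synthesis and desaturation. The table held 60605 genes, of which 21206 reached an FPKM (counts per kilobase of exon, scaled to the total of the library) of at least 1 in at least 1 library, and all 28 members were among these.

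Bulk RNA-seq was carried out on H1, a wild-type human embryonic stem cell line, during cardiac differentiation. Cells were switched on day 0 to a DF medium that contained ascorbic acid, selenite, transferrin and a chemically defined lipid supplement, received the WNT activator CHIR-99021 on day 0 and insulin on day 1, and were harvested on days 0, 1 and 2 as 3 shared libraries. Afterwards the culture followed 3 arms, each with 1 library on days 3, 5, 7 and 10. NP-ctrl cells were not passaged and differentiated spontaneously. NP-IWP2 cells were not passaged and received the WNT secretion inhibitor IWP2 for a limited time from day 2. Passaged cells were detached with EDTA on day 2 and replated on Matrigel without a WNT inhibitor. According to the study, they were split into new wells, and a ROCK inhibitor was added in all differentiation experiments that followed its survival tests. The lipid supplement was part of the medium in every arm.

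No arm had a second library on any day, and nothing in the labels points to separate differentiations. A difference between 2 libraries of the same day therefore carries only a counting interval, exact at 95% and based on the Clopper-Pearson method, whereas tests over days measure the spread of an arm difference from day to day. Total counts ranged from 13254723 to 20250115 per library, and the members held between 63 and 53457 counts each. In bulk RNA, fewer cells of a type and less RNA per cell cannot be told apart. The libraries differed in ways that accompany the results below. Genes of the mitochondrial genome took 1.53% of counts in passaged cells on day 3 and 10.3% in passaged cells on day 10, against 3.71% to 6.14% in the other 13 libraries. The labelled fate was visible in the markers, since POU5F1 stood at 625 FPKM on day 0 and at or below 0.03 FPKM in every day 10 library, while the cardiac myosin gene MYH6 reached 123 FPKM in NP-ctrl, 445 with IWP2 and 1013 after passaging on day 10.

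Cholesterol synthesis starts with the condensation of acetyl-CoA units, runs through mevalonate and the isoprenoid units to squalene, closes the ring to lanosterol and then trims lanosterol to cholesterol. When sterols in the endoplasmic reticulum are scarce, SREBP precursors move to the Golgi, are cleaved there and enter the nucleus, where SREBF2 mainly serves sterol genes and SREBF1 fatty acid genes. INSIG1, itself a target of this system, holds the precursors back when sterols are plentiful. Dividing cells draw on both pathways for new membrane, and the liver is known for high levels of both.

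**Figure D1:**
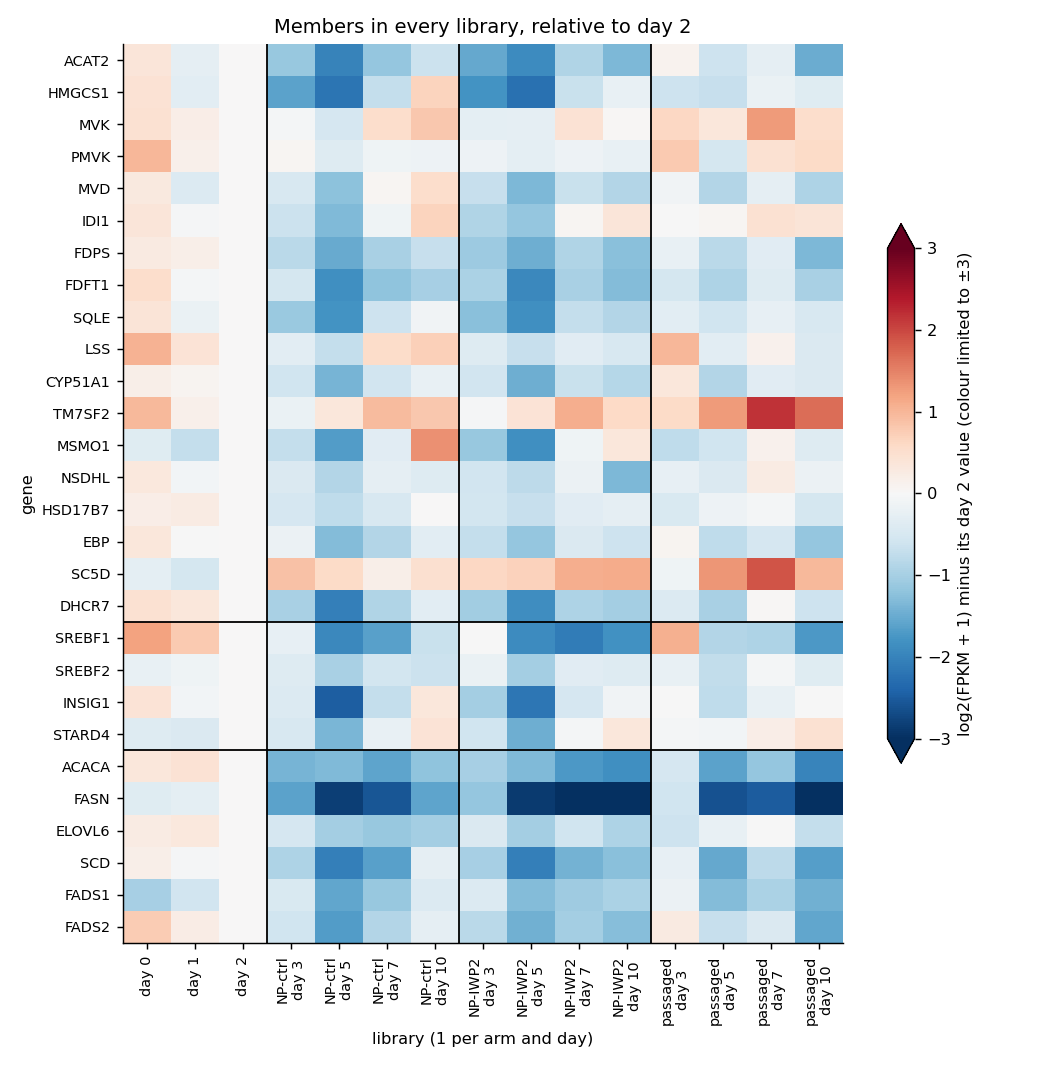
Heat map of log2(FPKM + 1) minus the day 2 value of the same gene, for the 28 members (rows, in the 3 groups separated by black lines) in the 15 libraries (columns, shared days first and then each arm by day). Day 5 of NP-ctrl and NP-IWP2 is blue for nearly every gene, with TM7SF2 and SC5D as the exceptions, whereas day 5 of passaged cells is paler for the sterol enzymes.

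In undisturbed culture most members were low by day 5. Across the first 3 libraries, 15 of the 18 sterol enzymes were highest on day 0, a pattern held by 37.3% of all genes above the filter, by 2 of 4 SREBP factors and targets and by 2 of 6 fatty acid genes. FASN and FADS1 were instead highest on day 2, FADS1 at 38.4 FPKM against 18.7 on day 0. The median sterol enzyme was 0.36 lower on day 2 than on day 0 on the log2(FPKM + 1) scale, and 3 of 18 were at least 1.5-fold lower on that scale, against 12.4% of all genes. The lower levels came after day 2. In NP-ctrl cells on day 5, 14 of 18 sterol enzymes, 4 of 4 SREBP factors and targets, and 6 of 6 fatty acid genes were at least 1.5-fold below day 2, against 16.8% of all genes, and their medians differed from day 2 by -1.31, -1.65 and -1.62, while the median of all genes was 0.00. In NP-IWP2 cells the same counts were 14, 4 and 6 against 15.8% of all genes, with medians of -1.26, -1.67 and -1.37. Day 5 was also the lowest of the 4 days for 16 of 18 sterol enzymes in NP-ctrl (18.2% of all genes) and for 14 of 18 in NP-IWP2 (21.5% of all genes).

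By their medians, the sterol enzymes and the SREBP factors and targets lay less far below day 2 in passaged cells on day 5. Of the fatty acid genes, 5 of 6 were above both static arms on day 5 (39.5% of all genes). Their median distance from day 2 nevertheless lay between those of the static arms. On day 5 passaged cells had 10 of 18 sterol enzymes, 3 of 4 SREBP factors and targets and 5 of 6 fatty acid genes at least 1.5-fold below day 2, against 17.6% of all genes. The medians were -0.61, -0.74 and -1.42. Day 5 was the lowest day for 7 of 18 sterol enzymes in this arm (18.2% of all genes). By day 7 the median sterol enzyme of passaged cells was -0.02 from day 2, compared with -0.41 in NP-ctrl and -0.39 in NP-IWP2. As a share of all counts, the 18 sterol enzymes together took 0.292% on day 0, 0.0919% in NP-ctrl, 0.0946% with IWP2 and 0.181% after passaging on day 5, and 0.270%, 0.180% and 0.179% in the same order on day 10. Proliferation markers were lower as well. Relative to day 2, 9 of 10 were at least 1.5-fold lower on day 5 in NP-ctrl, 8 of 10 in NP-IWP2 and 7 of 10 in passaged cells, and their part in the levels of the members was not tested.

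**Figure D2:**
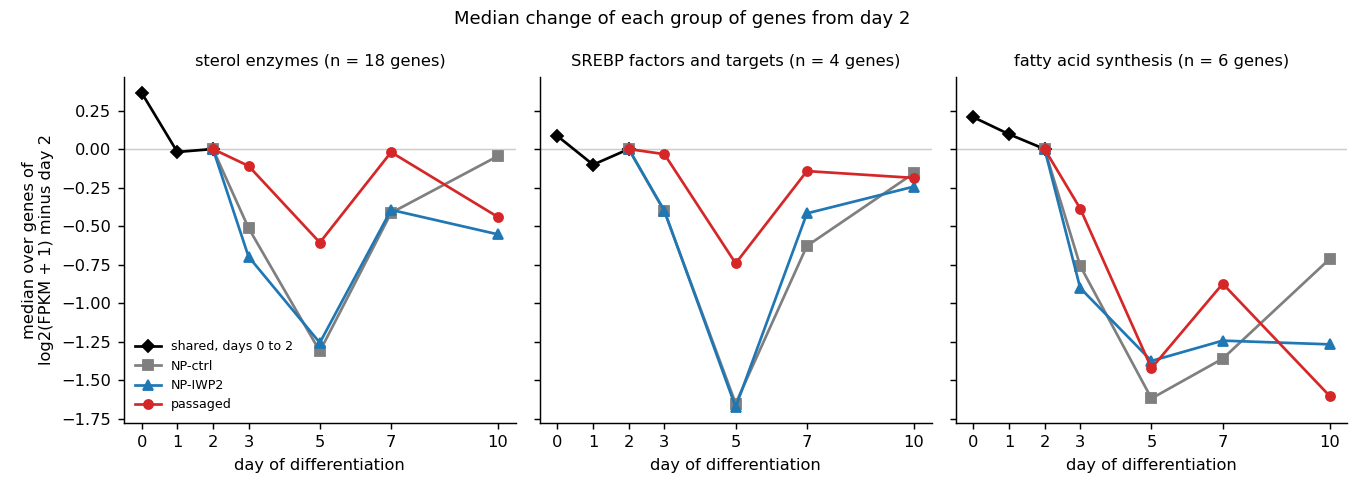
Median over the genes of each group of log2(FPKM + 1) minus day 2 (vertical axis) by day of differentiation (horizontal axis), with black diamonds for the shared libraries and lines for the 3 arms, 1 library per point. The arms without passaging reached -1.31 and -1.26 for the sterol enzymes on day 5 while passaged cells stopped at -0.61, and the fatty acid genes of all 3 arms were still below day 2 on day 10.

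Because the members were low together, the reference promoters were inspected for motifs that the pathway is known for. RefSeq windows of GRCh38.p14, from 250 bases before to 50 after the transcript start, were matched for 24 of the 28 members. A CCAAT box, the site of the factor NF-Y that works beside SREBPs, was found on either strand in 19 of 24 members and in 39.7% of 27305 genes with a window. Those 27305 genes, unlike the members, were not filtered by FPKM. By group, 13 of 15 sterol enzymes, 3 of 4 SREBP factors and targets and 3 of 5 fatty acid genes held it, and 14 of 27 other lipid genes (51.9%) did. A GC box, GGGCGG, was present in 23 of 24 members, in 23 of 27 other lipid genes (85.2%) and in 48.3% of all genes. The sterol regulatory element in the form TCACNCCAC was present in 1 member, SREBF2, and in 1.39% of all genes. The stretches shown here are examples from the 3 groups whose levels are described below. They are written 5′ to 3′ on the strand of the gene with 15 bases on either side, and carry the motif in capitals, where ATTGG is CCAAT read on the opposite strand. A match describes letters in the reference and not binding in these cells.
HMGCS1 (chr5:43313493-43313527, minus strand): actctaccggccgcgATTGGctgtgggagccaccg
LSS (chr21:46228905-46228939, minus strand): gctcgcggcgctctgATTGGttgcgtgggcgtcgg
MVD (chr16:88663157-88663191, minus strand): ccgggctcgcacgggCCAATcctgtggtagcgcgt
MSMO1 (chr4:165327620-165327654, plus strand): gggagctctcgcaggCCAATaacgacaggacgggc
TM7SF2 (chr11:65111783-65111817, plus strand): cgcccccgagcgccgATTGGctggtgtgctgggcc
INSIG1 (chr7:155297693-155297727, plus strand): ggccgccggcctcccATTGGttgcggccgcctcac
SCD (chr10:100347032-100347066, plus strand): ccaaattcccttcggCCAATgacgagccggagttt
SREBF2, sterol regulatory element (chr22:41832957-41832995, plus strand): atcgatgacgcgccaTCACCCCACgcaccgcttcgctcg
SREBF2, CCAAT box (chr22:41832984-41833018, plus strand): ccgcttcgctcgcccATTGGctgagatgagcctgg

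The motif started 34 bases before the transcript start in MSMO1, 74 in TM7SF2, 85 in MVD, 100 in HMGCS1, 150 in LSS, 170 in INSIG1 and 186 in SCD. TM7SF2, whose levels differed from those of the other sterol enzymes, carried the same box. In SREBF2 the sterol regulatory element started 133 and the CCAAT box 106 bases before the start and did not overlap, and 0.425% of all genes held both motifs in 1 window.

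Among the early steps, passaged cells stood apart from static cells up to day 7. HMGCS1 (ENSG00000112972, chr5:43287470-43313512, minus strand), which makes HMG-CoA, stood at 83.0, 48.4 and 60.8 FPKM on days 0, 1 and 2. On days 3, 5, 7 and 10 its level was 19.3, 12.6, 36.6 and 96.4 FPKM in NP-ctrl, 16.9, 12.1, 37.95 and 51.9 with IWP2, and 39.4, 37.4, 53.0 and 46.8 after passaging. Passaged cells were thus highest on days 3, 5 and 7 and lowest on day 10. Per total count, HMGCS1 was 2.04-fold higher in passaged than in NP-ctrl cells on day 3 (95% counting interval 1.93 to 2.15), 2.96-fold on day 5 (2.78 to 3.16) and 1.45-fold on day 7 (1.38 to 1.51), and on day 10 the ratio was 0.486 (0.469 to 0.503). ACAT2, which joins acetyl-CoA units, was ordered in the same way, with ratios of 2.43 (2.24 to 2.63), 2.75 (2.47 to 3.08), 1.89 (1.73 to 2.07) and 0.549 (0.496 to 0.606). In ACAT2, 22.2% of exonic bases are shared with genes on the other strand, and in HMGCS1 37.7%, so the counts of both are less certain.

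The mevalonate kinases and the decarboxylase varied more. MVK, which phosphorylates mevalonate, was at 2.05 to 9.41 FPKM over the 15 libraries, with its highest value in passaged cells on day 7. PMVK, the next kinase, lay between 6.80 and 21.5 FPKM and was the only sterol enzyme that was not above both static arms in passaged cells on day 5. MVD (ENSG00000167508, chr16:88651935-88663161, minus strand) forms the first isoprenoid unit, and its level was 20.5, 12.2 and 16.5 FPKM on days 0, 1 and 2. It read 11.5, 6.43, 17.3 and 24.1 FPKM in NP-ctrl, 9.91, 5.86, 9.99 and 8.43 with IWP2, and 15.3, 8.58, 13.6 and 8.21 after passaging on days 3, 5, 7 and 10. NP-ctrl was therefore the highest arm for MVD from day 7 on. IDI1, which isomerises that unit, gave 29.3, 22.0 and 22.5 FPKM on the shared days. Its later values were 14.2, 8.38, 20.4 and 36.5 FPKM in NP-ctrl, 11.7, 9.57, 23.4 and 29.5 with IWP2, and 22.3, 23.6, 31.4 and 29.9 after passaging. For IDI1 the passaged arm stayed between 22.3 and 31.4 FPKM while both static arms passed through a low on day 5. FDPS, which links the units to farnesyl diphosphate, had its lowest level, 15.8 FPKM, in the day 5 library of NP-ctrl and its highest, 56.9 FPKM, in stem cells. Exons of IDI1 and FDPS overlap antisense genes over 14.97% and 18.6% of their bases.

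The steps at the squalene branch point differed among themselves. FDFT1, which makes squalene, lay between 18.2 FPKM in NP-IWP2 on day 5 and 105 on day 0. SQLE, a slow step that oxidises squalene, read 56.0, 37.2 and 42.6 FPKM on days 0, 1 and 2. It stood at 19.2, 11.5, 27.2 and 39.7 FPKM in NP-ctrl, 17.3, 11.1, 25.6 and 22.7 with IWP2, and 34.0, 27.7, 35.4 and 30.0 after passaging. SQLE therefore spanned 27.7 to 35.4 FPKM after passaging, compared with 11.5 to 39.7 in NP-ctrl. LSS (ENSG00000160285, chr21:46188141-46228824, minus strand), the cyclase that forms lanosterol, measured 37.7, 24.2 and 17.8 FPKM on the shared days. After day 2 it was at 14.1, 10.51, 26.7 and 29.6 FPKM in NP-ctrl, 13.4, 10.6, 13.7 and 12.5 with IWP2, and 36.6, 14.0, 19.7 and 12.8 after passaging. Within the passaged arm LSS was highest on day 3, and NP-ctrl was the highest arm on days 7 and 10.

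Of the steps that follow lanosterol, most kept to the common course and TM7SF2 and SC5D did not. MSMO1, which removes methyl groups at the C-4 carbon, stood at 50.4, 39.9 and 65.6 FPKM on days 0, 1 and 2, and at 39.7, 19.96, 51.8 and 170.2 FPKM in NP-ctrl, 29.2, 17.6, 60.1 and 82.7 with IWP2 and 38.4, 42.7, 71.6 and 49.7 after passaging on days 3, 5, 7 and 10. The NP-ctrl value on day 10 was the highest of the 15 libraries. TM7SF2 (ENSG00000149809, chr11:65111845-65116384, plus strand), a C-14 sterol reductase, read 12.1, 6.46 and 5.74 FPKM on the shared days and then 4.91, 7.53, 12.02 and 10.8 FPKM in NP-ctrl, 5.61, 7.99, 13.2 and 9.21 with IWP2 and 8.99, 15.3, 29.5 and 20.5 after passaging. Passaged cells were the highest arm on each of the 4 days, and no trough was seen on day 5 in any arm. SC5D, which introduces the C-5 double bond, read 14.5, 12.2 and 18.0 FPKM on days 0, 1 and 2, and later gave 33.8, 27.2, 20.5 and 25.4 FPKM in NP-ctrl, 28.4, 29.6, 39.3 and 40.2 with IWP2 and 16.5, 47.0, 69.1 and 36.6 after passaging. On day 3, when most sterol enzymes were higher after passaging, SC5D was lower in passaged than in NP-ctrl cells, with a ratio of 0.489 (0.466 to 0.514).

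The remaining late enzymes were CYP51A1, NSDHL, HSD17B7, EBP and DHCR7, which demethylate lanosterol, work with MSMO1 at the C-4 carbon, shift a double bond and complete cholesterol. Their levels ranged from 1.26 to 6.83, 5.85 to 20.5, 2.81 to 6.64, 8.19 to 27.7 and 4.17 to 28.1 FPKM, respectively. CYP51A1 shares 74.1% and EBP 36.4% of exonic bases with other annotated genes, and HSD17B7 has a pseudogene, HSD17B7P2, that reached 111 counts in a library, so their counts are less certain. DHCR7, the last reductase of the pathway, followed the common course with 4.17 FPKM in NP-ctrl and 9.87 in passaged cells on day 5 and 16.0 and 12.8 on day 10.

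**Figure D3:**
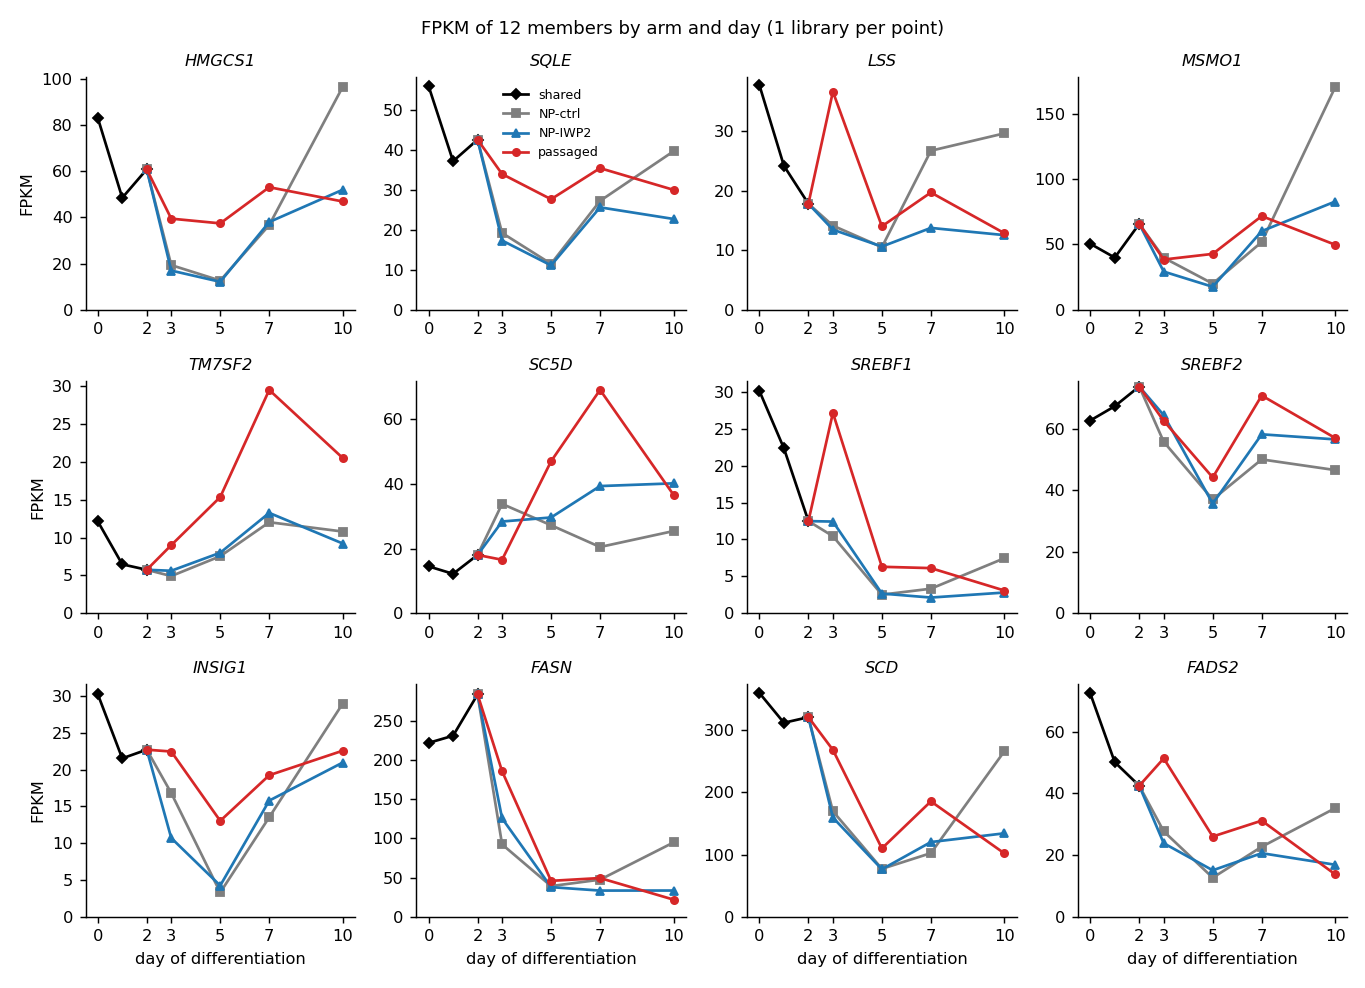
FPKM (vertical axis, from 0) by day of differentiation (horizontal axis) for 12 members, with black diamonds for the shared libraries and 1 line per arm, 1 library per point. HMGCS1, SQLE, INSIG1 and SCD dip on day 5 in NP-ctrl and NP-IWP2 and are higher in NP-ctrl than in the other arms on day 10, whereas TM7SF2 is highest in passaged cells on every day after day 2 and SREBF2 stays between 35.7 and 73.8 FPKM.

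Among the regulators, SREBF1 and INSIG1 varied far more than SREBF2. SREBF2 was at 62.7, 67.4 and 73.8 FPKM on days 0, 1 and 2, then at 55.8, 37.0, 50.1 and 46.6 FPKM in NP-ctrl, 64.5, 35.7, 58.2 and 56.6 with IWP2 and 62.6, 44.2, 70.9 and 57.0 after passaging. SREBF1 (ENSG00000072310, chr17:17810399-17837002, minus strand) gave 30.1, 22.4 and 12.5 FPKM on the shared days, and 10.4, 2.52, 3.33 and 7.46 FPKM in NP-ctrl, 12.4, 2.67, 2.13 and 2.81 with IWP2 and 27.2, 6.30, 6.12 and 3.08 after passaging. In passaged cells SREBF1 was thus highest on day 3, at 27.2 FPKM against 30.1 in stem cells. INSIG1 was at 30.2, 21.5 and 22.7 FPKM on days 0, 1 and 2, followed by 16.8, 3.30, 13.5 and 29.0 FPKM in NP-ctrl, 10.7, 4.24, 15.8 and 20.9 with IWP2 and 22.4, 13.03, 19.2 and 22.6 after passaging. Its ratio of passaged to NP-ctrl cells on day 5, 3.94 (3.35 to 4.65), was the highest of the 28 members in that pair. STARD4, a carrier of cholesterol in the cytosol, read 10.3, 10.0 and 13.9 FPKM on the shared days, and later 9.61, 4.78, 11.8 and 18.8 FPKM in NP-ctrl, 8.76, 4.37, 13.2 and 17.8 with IWP2 and 13.4, 13.01, 16.1 and 19.5 after passaging. After passaging STARD4 stayed between 13.01 and 13.4 FPKM on days 3 and 5, and the 3 arms lay within 17.8 to 19.5 FPKM on day 10.

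Of the fatty acid genes, FASN and SCD had the highest levels of the 28 members. FASN (ENSG00000169710, chr17:82078338-82098294, minus strand), the fatty acid synthase, measured 222, 231 and 283 FPKM on days 0, 1 and 2. Its later levels were 92.2, 39.1, 47.3 and 94.7 FPKM in NP-ctrl, 125, 37.8, 33.4 and 33.4 with IWP2 and 185, 45.8, 49.3 and 21.9 after passaging. Passaged cells were highest for FASN on day 3 and lowest on day 10, where the ratio to NP-ctrl was 0.231 (0.222 to 0.240). SCD, which desaturates stearate, was at 360.1, 312 and 321 FPKM on the shared days, and at 169.8, 77.2, 102 and 266 FPKM in NP-ctrl, 159.7, 76.4, 120.3 and 134 with IWP2 and 269, 110.0, 186 and 102 after passaging. FADS2, a desaturase of polyunsaturated fatty acids, gave 72.4, 50.1 and 42.5 FPKM on days 0, 1 and 2 and then 27.7, 12.7, 22.7 and 35.2 FPKM in NP-ctrl, 23.8, 15.1, 20.6 and 16.9 with IWP2 and 51.4, 26.0, 31.2 and 13.8 after passaging. For SCD and FADS2, too, the passaged arm was the highest on days 3, 5 and 7 and the lowest on day 10. ACACA, which makes malonyl-CoA, ranged from 4.31 to 27.5 FPKM. FADS1, the partner of FADS2 in desaturation, ranged from 12.3 to 38.4 FPKM. ELOVL6, an elongase, ranged from 9.77 to 28.3 FPKM and differed from the other fatty acid genes in being higher in passaged than in NP-ctrl cells on day 10, at 13.3 against 10.7. FADS1 and FADS2 share 5.57% and 5.11% of their exonic bases with other annotated genes. These are each other on opposite strands and, on the same strand, MIR1908 for FADS1 and FEN1 for FADS2.

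These levels were next summarised by day to ask how passaged cells differed from spontaneous differentiation. Comparisons with NP-ctrl share its libraries and are given side by side. Relative to NP-ctrl on day 3, 9 of 18 sterol enzymes, 1 of 4 SREBP factors and targets and 4 of 6 fatty acid genes were at least 1.5-fold higher in passaged cells, against 14.5% of all genes, with medians of 0.60, 0.42 and 0.76 beside 0.03 for all genes. On day 5 the counts were 12, 3 and 2 against 9.93% of all genes, with medians of 0.81, 1.16 and 0.38. On day 7 they were 8, 1 and 2 against 10.0% of all genes, with medians of 0.55, 0.49 and 0.43 beside -0.07 for all genes. The members that exceeded both static arms on all of days 3, 5 and 7 numbered 18 of 28 (11 sterol enzymes, 3 SREBP factors and targets, 4 fatty acid genes), compared with 6.77% of all genes. On day 10 the order against NP-ctrl was turned for most sterol enzymes and fatty acid genes, but not for SREBF2 and STARD4. Now 7 of 18 sterol enzymes, 1 of 4 SREBP factors and targets and 5 of 6 fatty acid genes were at least 1.5-fold lower in passaged than in NP-ctrl cells, against 22.6% of all genes, with medians of -0.35, -0.15 and -1.17 beside -0.09 for all genes. TM7SF2 and PMVK stood on the other side on day 10, at 20.5 against 10.8 FPKM and 15.7 against 9.04 FPKM. With TMM-scaled FPKM the sterol enzyme median was 0.70 on day 7 and -0.18 on day 10, and without mitochondrial counts it was 0.55 on day 3 and -0.25 on day 10.

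**Figure D4:**
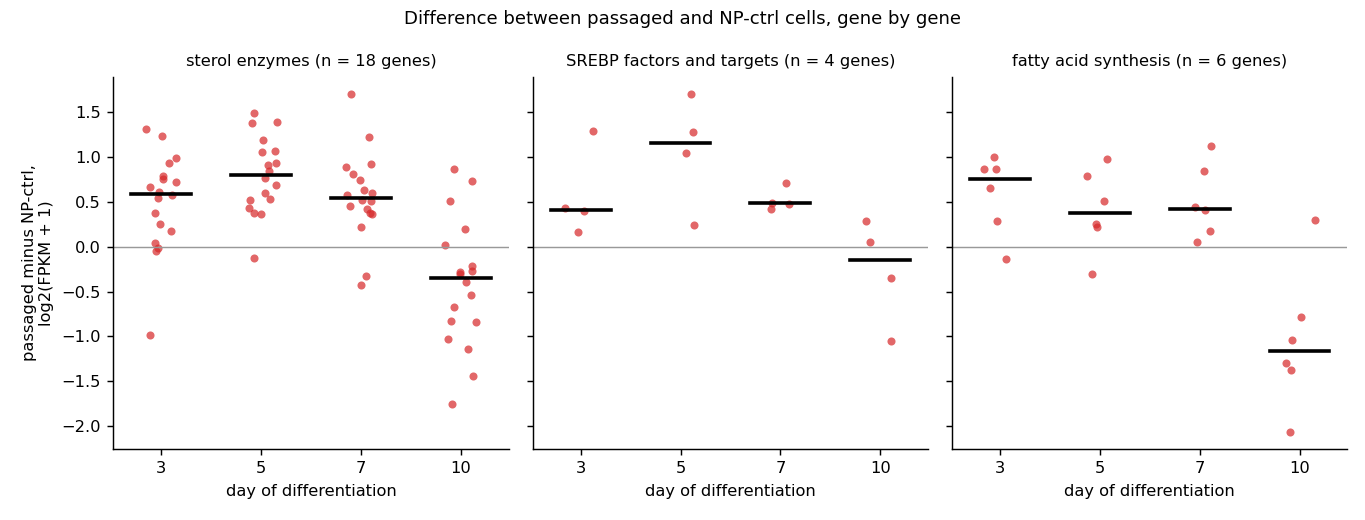
Passaged minus NP-ctrl difference in log2(FPKM + 1) (vertical axis) on days 3, 5, 7 and 10 (horizontal axis), with 1 point per gene, the median of the group as a black bar, and 1 library per arm and day. Medians lie between 0.38 and 1.16 on days 3, 5 and 7 and at -0.35, -0.15 and -1.17 on day 10.

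Against NP-IWP2, the passaged cells had 12 of 18 sterol enzymes at least 1.5-fold higher on day 3 (10.1% of all genes), 12 on day 5 (9.45%) and 6 on day 7 (6.14%), with medians of 0.82, 0.64 and 0.48. On day 10 the median was 0.03. In that pair 3 of 18 sterol enzymes, namely PMVK, TM7SF2 and NSDHL, were at least 1.5-fold higher (8.76% of all genes), and 1 of 18 sterol enzymes and 1 of 6 fatty acid genes were at least 1.5-fold lower (16.3%). The medians of the 2 static arms lay close to each other up to day 7. None of the 18 sterol enzymes was at least 1.5-fold lower in NP-IWP2 than in NP-ctrl on day 3, against 3.47% of all genes, and the medians were -0.21, 0.07 and 0.09 on days 3, 5 and 7. MVD and LSS were apart on day 7 already, at 9.99 and 13.7 FPKM in NP-IWP2 against 17.3 and 26.7 in NP-ctrl. On day 10, however, 10 of 18 sterol enzymes and 4 of 6 fatty acid genes were at least 1.5-fold lower in NP-IWP2, against 14.4% of all genes, with medians of -0.66 and -0.81. SC5D differed from the other sterol enzymes on day 10 and was 1.58-fold higher in NP-IWP2 than in NP-ctrl (1.52 to 1.65).

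Levels after day 5 also differed between the arms. From day 5 to day 10, 14 of 18 sterol enzymes, 3 of 4 SREBP factors and targets and 4 of 6 fatty acid genes were at least 1.5-fold higher in NP-ctrl (17.1% of all genes), with medians of 1.23, 1.52 and 1.21. In NP-IWP2 these counts were 7, 3 and 1 (18.9% of all genes), with medians of 0.50, 1.23 and 0.12. In passaged cells they were 1, 1 and 0 (14.4% of all genes), with medians of 0.15, 0.45 and -0.44. From day 7 to day 10 passaged cells had 7 of 18 sterol enzymes and 5 of 6 fatty acid genes at least 1.5-fold lower, against 10.4% of all genes, and ACAT2 gave the lowest ratio among the sterol enzymes at 0.414 (0.377 to 0.454). In NP-ctrl, 12 of 18 sterol enzymes and 5 of 6 fatty acid genes had their highest value after day 2 on day 10 (29.8% of all genes), while in passaged cells no member of either group had (24.2% of all genes).

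Markers of other cell types and of division moved beside these differences. The 7 endoderm and hepatic markers summed to 3582 FPKM in NP-ctrl, 1000.1 with IWP2 and 0.99 after passaging on day 10, with 7 of 7 at least 1.5-fold lower in passaged than in NP-ctrl cells. AFP, which fetal liver secretes, stood at 2366, 716 and 0.23 FPKM in these libraries, and APOA2 and FOXA2 were listed at 0 in the passaged library. On day 5, when the members were lowest in the static arms, the same list summed to 42.9 FPKM in NP-ctrl and 1.85 in passaged cells. Stromal markers summed to 4035, 1048 and 90.5 FPKM and cardiomyocyte markers to 458, 1418 and 3635 FPKM in the NP-ctrl, the NP-IWP2 and the passaged library of day 10. The 10 proliferation markers summed to 477 FPKM in NP-ctrl and 595 in passaged cells on day 3 with 4 of 10 at least 1.5-fold higher, to 218 and 338 on day 5 with 7 of 10 higher, to 209 and 216 on day 7 with 1 of 10 higher, and to 179 and 80.7 on day 10 with 6 of 10 lower. The median proliferation marker differed by 0.21, 0.61, -0.04 and -0.95 on days 3, 5, 7 and 10. On days 3, 5 and 10 this had the same sign as the sterol enzyme median given above. On day 7 the median sterol enzyme differed by 0.55. The part of these cell types and of cell division in the levels of the members was not tested.

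Arm differences were then tested over the 12 libraries of days 3 to 10 with edgeR's quasi-likelihood test on the deposited counts, with day as a factor and Benjamini-Hochberg adjustment over 21206 genes. Between passaged and NP-ctrl cells, 1 of 28 members passed an adjusted p of 0.05, near the 4.40% of all genes. This was TM7SF2, which was higher in passaged cells by 1.09 ± 0.157 (log2 ± SE, edgeR adjusted p = 0.00418) and on 4 of 4 days. Of the members, 25 of 28 had estimates above 0, with a median of 0.52 (0.55 for the sterol enzymes, 0.65 for SREBP factors and targets, 0.16 for fatty acid genes) beside 0.00 for all genes, and 13 had an unadjusted p under 0.05 (19.2% of all genes in either direction). Without day 7 the TM7SF2 estimate was 0.97 (edgeR adjusted p = 0.0864) and no member passed, beside 133 of all 21206 genes. Without day 3 or without day 10, 4 members passed, beside 2373 and 323 of all 21206 genes, respectively. A fit of the 2 arms alone gave 1.08 (edgeR adjusted p = 0.0712).

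Between passaged and NP-IWP2 cells 1 of 28 members passed, against 1.33% of all genes, and it was again TM7SF2 at 1.06 ± 0.157 (edgeR adjusted p = 0.0111). All 28 estimates were above 0, with a median of 0.68, and 17 members had an unadjusted p under 0.05 (12.9% of all genes). The number depended on the tool. DESeq2 called 10 members, beside 886 of all 21206 genes. The limma fit on log2(FPKM + 1) called 0, beside 6 of all genes, with a limma adjusted p of 0.0556 for TM7SF2. TM7SF2 no longer passed edgeR without day 5, day 7 or day 10 (adjusted p = 0.0726, 0.139 and 0.0559). Between NP-IWP2 and NP-ctrl cells 0 of 28 members passed edgeR, against 0.0189% of all genes. An unadjusted p under 0.05 was held by 1 member (4.76% of all genes), and DESeq2 and limma also called 0. The median estimate was -0.23, and the smallest edgeR adjusted p among the members was 0.973.

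The change with time was tested in the same fit, where the 3 arms served as the repetition. From day 3 to day 10 the 3 arms together showed 5 of 28 members higher (17.9% of all genes) and 2 lower (17.1% of all genes). The number of higher members was thus near the share of all genes, and that of lower members was below it. HMGCS1 rose by 1.60 ± 0.365 (log2 ± SE, edgeR adjusted p = 0.00608), IDI1 by 1.16 ± 0.258 (edgeR adjusted p = 0.00517), TM7SF2 by 1.10 ± 0.182 (edgeR adjusted p = 9.78e-04), MSMO1 by 1.56 ± 0.400 (edgeR adjusted p = 0.0110) and STARD4 by 0.94 ± 0.245 (edgeR adjusted p = 0.0116). SREBF1 fell by 1.70 ± 0.401 and FASN fell by 1.45 ± 0.433, with edgeR adjusted p of 0.00709 and 0.0229. These estimates pool the arms. By the FPKM given above, HMGCS1, IDI1, MSMO1 and STARD4 rose least in passaged cells, whereas TM7SF2 rose least in NP-IWP2. The fall of FASN was that of NP-IWP2 and passaged cells. In NP-ctrl its FPKM was slightly higher on day 10 than on day 3. Estimates were above 0 for 10 of 18 sterol enzymes and for 0 of 6 fatty acid genes, and the median member was at -0.11 beside 0.04 for all genes. Leaving out NP-IWP2 left TM7SF2 as the only called member, and leaving out NP-ctrl kept 4 of the 7, with edgeR adjusted p of 0.0519 for HMGCS1, 0.0519 for MSMO1 and 0.0548 for STARD4. Without the passaged arm the FASN estimate was -0.88 (edgeR adjusted p = 0.0736).

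Finally, slopes over day were added to test whether the arm difference itself moved. The passaged minus NP-ctrl difference decreased with day in 5 of 28 members, against 3.64% of all genes, and increased in none. The slope was -0.25 ± 0.0557 log2 per day for MVD, -0.33 ± 0.0591 for LSS, -0.34 ± 0.0788 for SREBF1, -0.38 ± 0.0722 for FASN and -0.29 ± 0.0743 for FADS2, with edgeR adjusted p of 0.0277, 0.0138, 0.0347, 0.0158 and 0.0482. In LSS the passaged value exceeded NP-ctrl on days 3 and 5 and was below it on days 7 and 10, while in FADS2 and SREBF1 it was above NP-ctrl on days 3, 5 and 7 and below it on day 10. The calls depended on day 10, since without it the slopes were -0.13 for MVD, -0.39 for LSS, -0.06 for SREBF1, -0.18 for FASN and -0.05 for FADS2, and none of the 5 passed edgeR. Without day 10 the only called member was SC5D, whose slope went the other way and was above 0. Without day 3, 10 members passed, and without day 5 or without day 7 2 members passed. The share of all genes in these fits is not given here. Against NP-IWP2, 0 of 28 members had a slope that passed edgeR (1.02% of all genes in either direction). An unadjusted p under 0.05 was held by 3 members (12.7% of all genes), and DESeq2 and limma called 0.

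**Figure D5:**
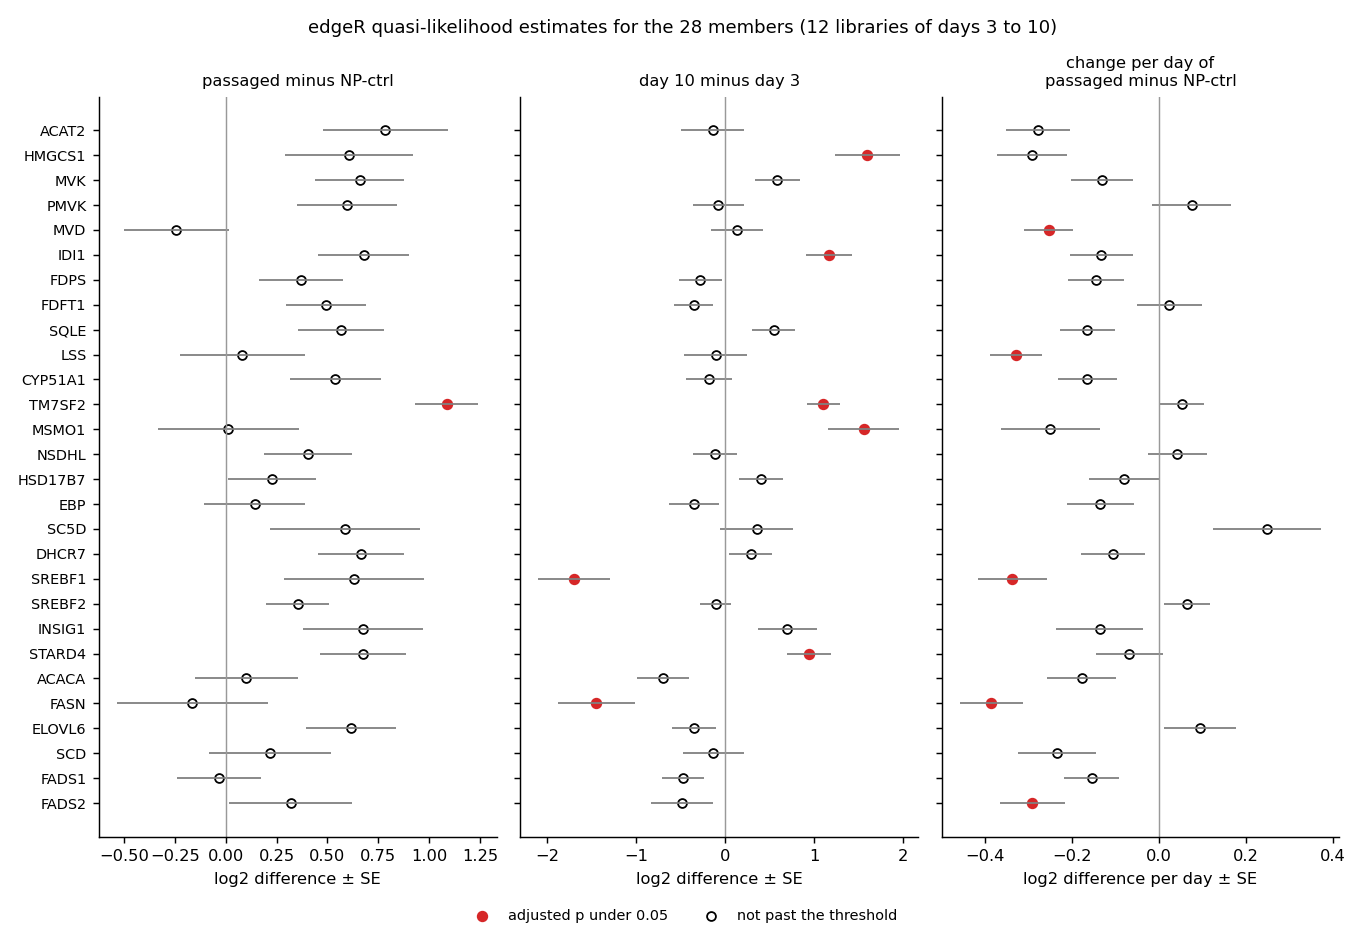
edgeR quasi-likelihood estimates with their SE (horizontal axes) for the 28 members (vertical axis) over the 12 libraries of days 3 to 10, as the passaged minus NP-ctrl difference, the day 10 minus day 3 difference and the slope per day of passaged minus NP-ctrl. Filled red points passed an adjusted p of 0.05, which held for 1, 7 and 5 members, and most open points in the left panel lie right of 0.

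Other lipid genes were examined to see how far the pattern reached, using 29 genes of late sterol steps, SREBP processing, acetyl-CoA and fatty acid supply, sterol efflux, storage and phospholipid synthesis. Between passaged and NP-ctrl cells 2 of 29 passed edgeR, near the 4.40% of all genes. These were ACACB, which makes malonyl-CoA at mitochondria and was higher by 1.16 ± 0.227 (edgeR adjusted p = 0.0179) and the desaturase SCD5, higher by 1.28 ± 0.272 (edgeR adjusted p = 0.0248). Both are relatives of members, ACACA and SCD, whose own estimates were 0.10 and 0.22 and did not pass. ACACB read 0.27, 1.01, 1.93 and 3.33 FPKM in NP-ctrl, 0.52, 1.12, 3.18 and 5.43 with IWP2 and 0.80, 1.12, 4.53 and 9.14 after passaging on days 3, 5, 7 and 10, and was the highest after passaging on days 3, 7 and 10. None of the 29 passed between the static arms or between passaged and NP-IWP2 cells, against 0.0189% and 1.33% of all genes, and 3 and 9 had an unadjusted p under 0.05, against 4.76% and 12.9%.

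Over days 3 to 10, 11 of the 29 rose and 5 fell, against 17.9% and 17.1% of all genes. Among those that rose were ACACB by 3.60 ± 0.282 (edgeR adjusted p = 1.30e-05), the SREBP protease MBTPS2 by 1.38 ± 0.195 (edgeR adjusted p = 3.88e-04) and INSIG2, the second INSIG protein, by 1.20 ± 0.275 (edgeR adjusted p = 0.00597). Among those that fell were ACLY, which supplies acetyl-CoA, by 0.88 ± 0.262 (edgeR adjusted p = 0.0220) and the SREBP escort SCAP by 0.49 ± 0.162 (edgeR adjusted p = 0.0368). For the slope of passaged minus NP-ctrl, NPC2 and PLIN2, which carry sterol in lysosomes and coat lipid droplets, passed with 0.30 ± 0.0738 and 0.25 ± 0.0628 (edgeR adjusted p = 0.0420 and 0.0450, 2.52% of all genes in that direction).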

How the data were processed

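Bulk RNA-seq of 15 libraries was analysed. According to the submitters' processing notes and the study's methods, reads were trimmed with cutadapt 1.9.1, aligned to hg38 with HISAT2 2.0.1 and counted per Ensembl gene with HTSeq 0.6.1. The authors deposited whole-number counts per gene. The deposited FPKM values are those counts scaled by exonic length and library total, and recomputing them gave differences of at most 0.005. The kit named by the study (SMRTbell) is a long-read kit whereas the tools are for short reads, which leaves doubt over length scaling, and strand handling was not given in the sources used here.

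Genes with FPKM of at least 1 in at least 1 library were kept. Libraries of a day were compared on log2(FPKM + 1), which understates the change of low genes, and a gene was counted as higher or lower at 1.5-fold on that scale. Ratios are of counts per total with exact Clopper-Pearson 95% intervals, which cover counting error only. Tests used edgeR 4.0.16 (R 4.3.3) with TMM, and SE is the log2 change divided by the square root of F. The script was tested on simulated data. Alternatives were DESeq2 1.42.0, limma 3.58.1 on log2(FPKM + 1), RLE size factors, no filter, left-out days or arms, a pseudocount of 0.1 and other scalings. Groups came from the labels. The members and lists were chosen with earlier results of these data known. Any of the members could be named, and other lipid genes only where they passed a test. Coordinates are those of the deposited table, and 25 of 28 members had the same coordinates in GENCODE 44 (GRCh38). Promoters came from RefSeq. The result for 1 of the other lipid genes is not reported here.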

Additional observations from a re-analysis of the deposited data

Results flagged for a closer look

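The arm difference between passaged and NP-ctrl cells changed with day in 5 members by edgeR's slope test, and this is what singled them out. The slope was -0.25 log2 per day for MVD, -0.33 for LSS, -0.34 for SREBF1, -0.38 for FASN and -0.29 for FADS2. All 5 slopes kept their sign under every alternative tried and lost their calls without day 10.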

How the results depend on the processing

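With no filter on low values, edgeR called 6 members between passaged and NP-ctrl cells and 12 between passaged and NP-IWP2 cells, in place of 1 each. The calls over all 42601 genes of these fits were 2552 and 1360. Fits of only the 2 arms compared gave 0 and 2, beside 109 and 163 of all 21206 genes. Fits without a day term gave 0 and 0, beside only 1 and 2 of all 21206 genes. Between passaged and NP-IWP2 cells, DESeq2 called 10 members and limma 0, beside 886 and 6 of all 21206 genes. For the slope against NP-ctrl, limma called 3 members and log2 of the day 2, in place of 5. Leaving out each day gave 0 to 4 members for passaged minus NP-ctrl, beside 133 to 2373 of all 21206 genes. For passaged minus NP-IWP2 it gave 0 to 2, beside 13 to 675 of all genes. For the slope it gave 1 to 10 (the 1, without day 10, was SC5D with an increasing slope). Leaving out each arm gave 1 to 8 for day 10 minus day 3. The calls over all genes are not given here for these slope fits and fits without an arm. Their counts therefore cannot be read as particular to the members. With TMM-scaled FPKM the sterol enzyme median of passaged minus NP-ctrl was 0.70 on day 7 and -0.18 on day 10. The cause of these shifts was not tested. Of 114 values of single genes under an alternative, 79 kept their direction and their side of the threshold, 35 kept their direction but no longer passed, and none was reversed.

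No paired analysis was possible because each arm had 1 library per day and replicate numbers were not given. Day served as the block instead. Without replicates of an arm on a day, a difference that belongs to 1 library cannot be told apart from one of its arm. Depth limited CYP51A1 most, with 63 counts in NP-IWP2 on day 5.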
